A study of Rattus norvegicus with 24 samples.

Results

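The genes described here had lower mean RNA levels than sham in the rat left ventricle at every time examined after spinal cord injury. They were chosen from the measured values: counts were scaled to counts per 1000000 of the library total (CPM), and genes with a mean of at least 2 CPM over the 24 libraries were kept. Group means of log2(CPM + 0.5) were then set against the sham group, and a gene was a member when the difference was at most -0.6 at 1 day, at 3 days and at 12 weeks. Of the 11567 genes with a mean of at least 2 CPM, out of 23098 gene IDs in all, 63 (0.545%) were members. The differences with sham chose the members and are given as a description.

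The tissue was the free wall of the left ventricle at mid-ventricular level from male Wistar rats. The 6 sham libraries came from animals that underwent a high thoracic durotomy, with the cord left intact, and were collected 7 days after surgery. The 3 injured groups had their high thoracic cord completely transected (spinal cord injury, SCI) and were collected 1 day, 3 days or 12 weeks after it, with 6 libraries each. The labels name no genotype, drug or age, and do not say whether all libraries are from separate rats, so the spread between libraries may in part be technical. No injured group has a sham group of its own collection time.

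Sympathetic nerves raise the rate and force of the heart, and their preganglionic neurons lie in the thoracic cord under the command of pathways that descend from the brain. A complete high thoracic transection cuts most of that command, while the vagus nerve, which slows the heart, leaves the brainstem directly and is spared. The left ventricle is built from cardiomyocytes together with endothelial cells, fibroblasts, mural cells and immune cells. A lower level of an RNA in such tissue can come from fewer cells of a type or from less RNA per cell, and these cannot be told apart here.

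The deposited table gives Ensembl gene IDs without gene names, and none of the 23098 IDs matched the gene table used for names. Functions, cell types, positions and promoter sequences of the members are therefore not described, and the labelled tissue was not checked against its markers. Only 2 IDs are printed, that of the member with the most negative mean difference with sham and that of the member with the highest mean CPM. Other members are identified by their rank in one of these orders. CPM is not corrected for gene length, so the order by CPM is not an order of transcript numbers.

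Library totals ran from 15002476 to 70340174 counts, with 27097306 to 70340174 in sham, 41326217 to 62308617 at 1 day, 16756399 to 48966088 at 3 days and 15002476 to 44709028 at 12 weeks. None of the 63 members had a count of 0 in any library, and the lowest count of a member in its weakest library was 2, with a median over members of 80. The labels number the libraries 57 to 62 (3 days), 63 to 68 (sham), 77 to 82 (1 day) and 83 to 88 (12 weeks). Sham and 3 days thus lie in one run of numbers and 1 day and 12 weeks in another. What the numbers stand for is not stated, and for 1 day and 12 weeks against sham the run and the injury cannot be told apart.

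Summed over the members, RNA was below every sham library in all 18 injured libraries. The sum was 2721, 2966, 3329, 3365, 3423 and 3781 CPM in the 6 sham libraries, a mean of 3264 ± 372 CPM (SD, n = 6). At 1 day it lay between 1212 and 1615 CPM (median 1457), at 3 days between 1235 and 2047 CPM (median 1462) and at 12 weeks between 1375 and 2261 CPM (median 1668). The group means of 1429 ± 156, 1530 ± 312 and 1713 ± 296 CPM (SD, n = 6) were 43.8%, 46.9% and 52.5% of the sham mean. The highest injured library was 12 week replicate 3, and the nearest sham library was replicate 5. The 5 members with the highest sham CPM made up 46.3% of the sham sum.

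**Figure D1:**
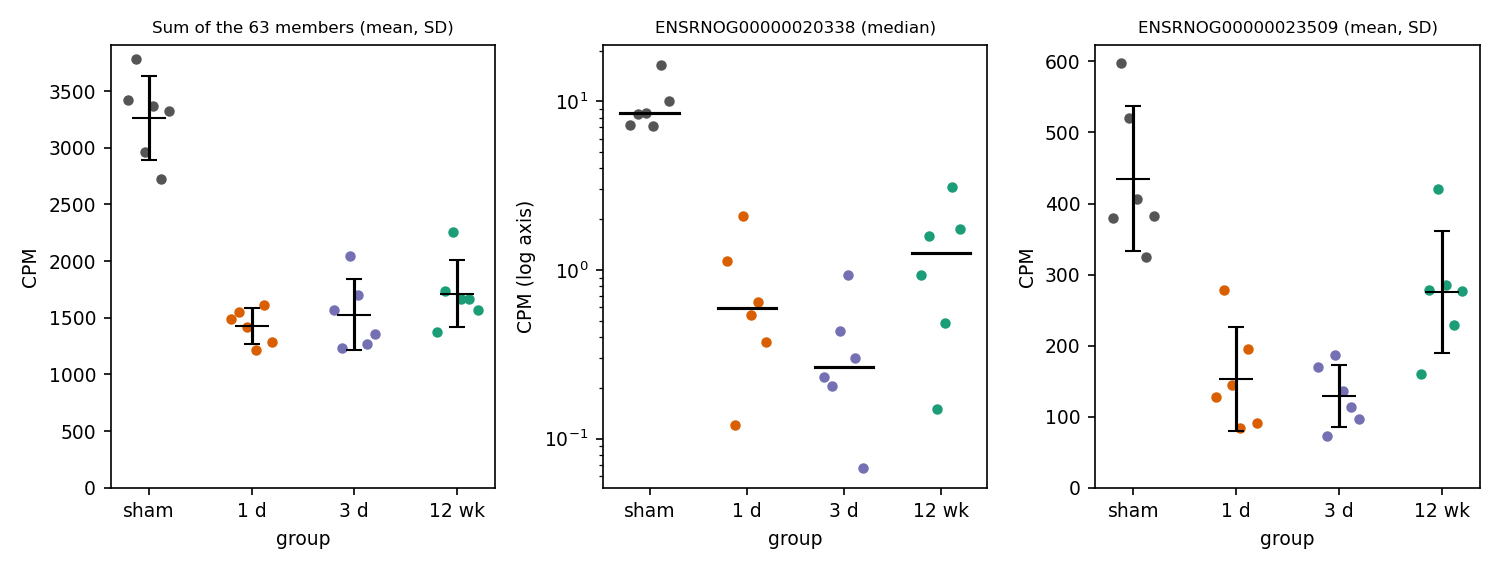
RNA levels in CPM in each library (points) by group, for the sum of the 63 members and for the 2 members whose IDs are printed; bars give the mean and SD (left and right) or the median (middle, log axis), n = 6 per group. The sham sums lie between 2721 and 3781 CPM and the injured sums between 1212 and 2261 CPM, while the gene on the right has a 12 week library inside the sham range.

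Counted gene by gene, the median difference with sham on the log2(CPM + 0.5) scale was -1.02 at 1 day, -1.03 at 3 days and -0.91 at 12 weeks, where the medians of all 11567 genes were 0.009, -0.004 and 0.021. Among the members the differences ran from -3.04 to -0.61 at 1 day, from -3.56 to -0.61 at 3 days and from -3.89 to -0.60 at 12 weeks. In 13 members all 3 differences were at most -1, and in 15 members all of them were above -1. The lowest of the 3 values stood at 1 day in 21 members, at 3 days in 22 and at 12 weeks in 20. At a single time, 320, 292 and 393 of the 11567 genes were at or under -0.6, in order of time. The mirrored rule, with all 3 differences at least 0.6, was met by 81 genes.

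The edge of the group was crowded. A total of 26 members had their highest difference within 0.1 of the threshold, and 32 further genes missed it by at most 0.1. The member nearest to the edge had differences of -0.71, -0.76 and -0.60 in order of time, and the 2 next had highest differences of -0.61 each. Just outside, the nearest gene had differences of -0.63, -0.60 and -1.02, and its value at 3 days, -0.598, kept it out. The next had -0.99, -0.98 and -0.59, and the third -0.87, -0.59 and -0.86. The genes on the 2 sides of the edge are thus alike in these values.

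**Figure D2:**
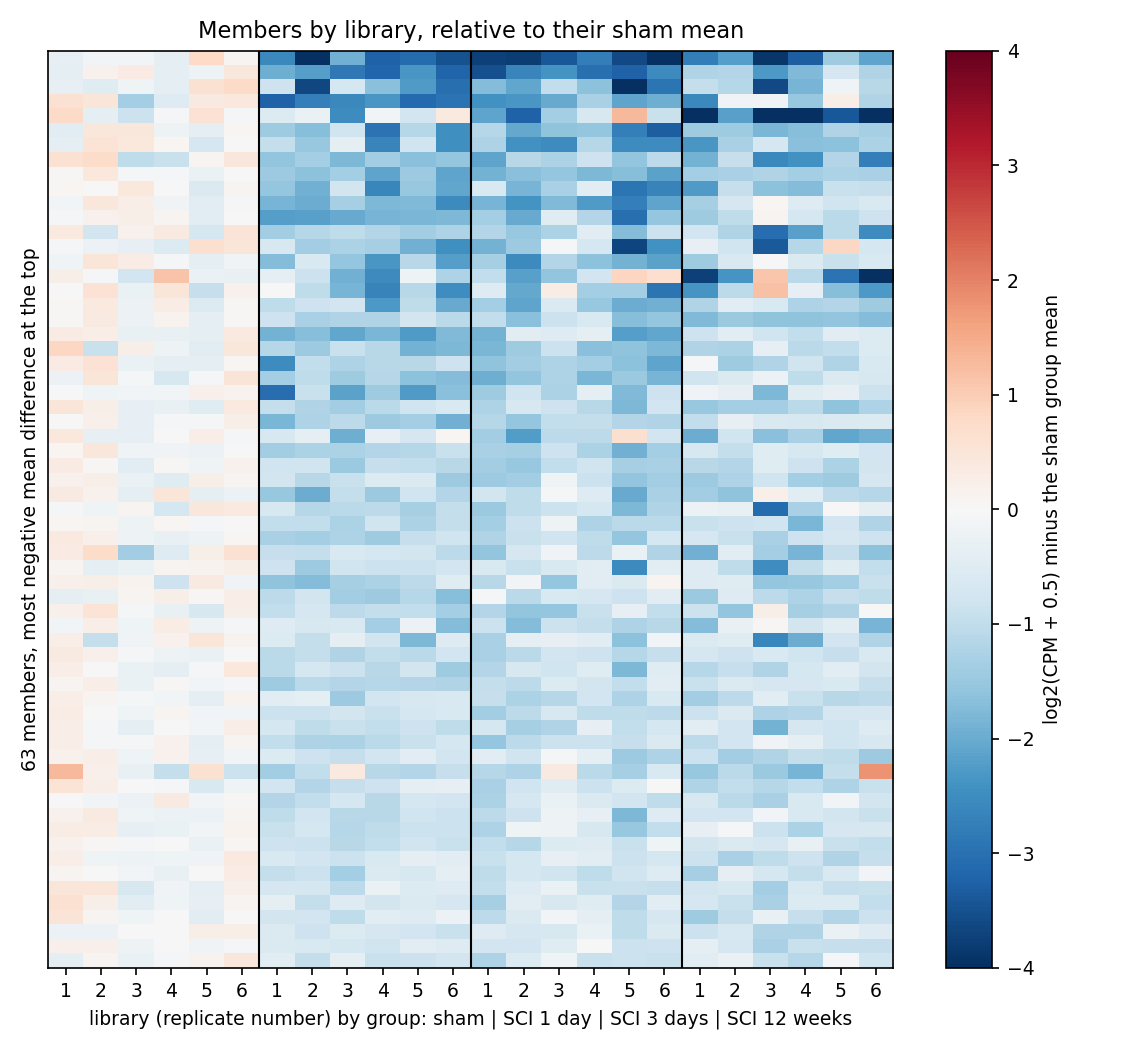
Each row is 1 of the 63 members and each column 1 of the 24 libraries; colour gives log2(CPM + 0.5) minus the member's sham mean, with the colour scale ending at -4 and 4. The injured libraries are mostly blue, with single red cells such as that of 12 week replicate 6 in the lower part.

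ENSRNOG00000020338 had the most negative mean difference. It had 7.19, 8.43, 8.57, 7.11, 16.5 and 10.1 CPM in sham replicates 1 to 6. At 1 day the values were 1.13, 0.121, 2.08, 0.544, 0.642 and 0.373 CPM, at 3 days 0.233, 0.204, 0.433, 0.936, 0.298 and 0.0672 CPM, and at 12 weeks 0.933, 1.59, 0.150, 0.482, 3.12 and 1.75 CPM. Every injured library lay below every sham library, and sham replicate 5 stood above the other sham libraries. The group means of ENSRNOG00000020338 were 9.65 ± 3.51 CPM in sham, 0.816 ± 0.705 at 1 day, 0.362 ± 0.306 at 3 days and 1.34 ± 1.07 at 12 weeks (SD, n = 6). The injured libraries rest on few counts, down to 2 in 3 day replicate 6, against 239 to 617 in sham. Its differences of -3.04, -3.56 and -2.62 depend on the pseudocount for that reason, and with a pseudocount of 0.1 they were -3.70, -4.57 and -3.12.

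ENSRNOG00000023509 had the highest mean CPM. It had 379, 597, 521, 406, 324 and 383 CPM in sham replicates 1 to 6. At 1 day the values were 127, 278, 145, 83.7, 196 and 91.4 CPM, at 3 days 170.2, 72.4, 187, 136, 114 and 97.0 CPM, and at 12 weeks 159.7, 279, 421, 285, 229 and 277 CPM. All libraries of 1 and 3 days lay below all sham libraries, while 12 week replicate 3 lay within the sham range. The group means were 435 ± 103, 153.5 ± 73.3, 129 ± 43.8 and 275 ± 85.9 CPM (SD, n = 6), and the differences on the log2 scale were -1.60, -1.79 and -0.69 in order of time. At 12 weeks edgeR's quasi-likelihood test did not call this member lower than sham (Benjamini-Hochberg adjusted p = 0.0984). Its 12 week difference missed the threshold in some alternatives. The value was -0.54 without 12 week replicate 1, -0.59 without sham replicate 2 and -0.505 with group medians.

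The second member by mean CPM had a sham range of 243 to 447 CPM (median 313), and ranges of 80.4 to 182, 78.6 to 299 and 103 to 366 CPM in the injured groups in order of time. Its 3 day and 12 week libraries overlapped the sham range, and its 1 day libraries did not. EdgeR's test called it lower than sham at 1 day (adjusted p = 0.00292). It was not called at 3 days (edgeR adjusted p = 0.0527) or 12 weeks (adjusted p = 0.0697). The sixth member by mean CPM had 160.1 to 262 CPM in sham and 83.5 to 124, 63.1 to 134 and 60.2 to 73.7 CPM in the injured groups, with no overlap at any time. The seventh had no overlap either, with means of 168 ± 29.2 CPM in sham and 82.4, 83.2 and 100.1 CPM in the injured groups. In the 43 members with a sham mean of at least 10 CPM the median differences were -1.18, -1.12 and -0.91, and in the 20 with less they were -0.92, -0.90 and -0.89.

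All 3 differences of a member are taken from the same 6 sham libraries, so a sham mean that lies high by chance would lower all of them at once. The spread of these libraries is therefore given for the members. The SD of log2(CPM + 0.5) over the sham libraries had a median of 0.313 over the members, with a range from 0.110 to 0.868, where the median over all 11567 genes was 0.123. Over the 81 genes of the mirrored rule that median was 0.276, with a median sham mean of 6.20 CPM. In sham the members and all genes had alike levels, with median sham means of 19.2 and 19.7 CPM. Over all 24 libraries the median mean was 11.5 CPM over the members and 19.8 CPM over all genes. The levels in the injured groups were thus not alike, which the rule itself set. Within the injured groups the members also had larger SDs than the genes at large, with medians of 0.275 against 0.136 at 1 day, 0.434 against 0.186 at 3 days and 0.405 against 0.205 at 12 weeks. Whether the rule itself favours genes with a wide spread was not tested, and no test was made of this contrast.

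The distance from the highest to the lowest sham library was 0.84 log2 units in the median member, from 0.29 in the narrowest to 2.25 in the widest. In 35 of the 63 members the smallest of the 3 differences was larger in size than this whole sham range. Expressed in sham SDs, the smallest difference was at least 2 SD in 45 members and under 1 SD in 1 member, with a median of 2.68. These counts use the differences that chose the members, so they are a description, and no share of all genes stands beside them. The member with the narrowest sham range had 4.23 to 5.27 CPM in sham, and 1.76 to 2.61, 1.58 to 4.20 and 1.03 to 2.65 CPM in the injured groups. The member with the widest range had 1.40 to 8.52 CPM in sham (median 3.13) and 0.921 to 4.33, 0.955 to 4.20 and 0.514 to 12.3 CPM in the injured groups, and these overlap at every time.

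**Figure D3:**
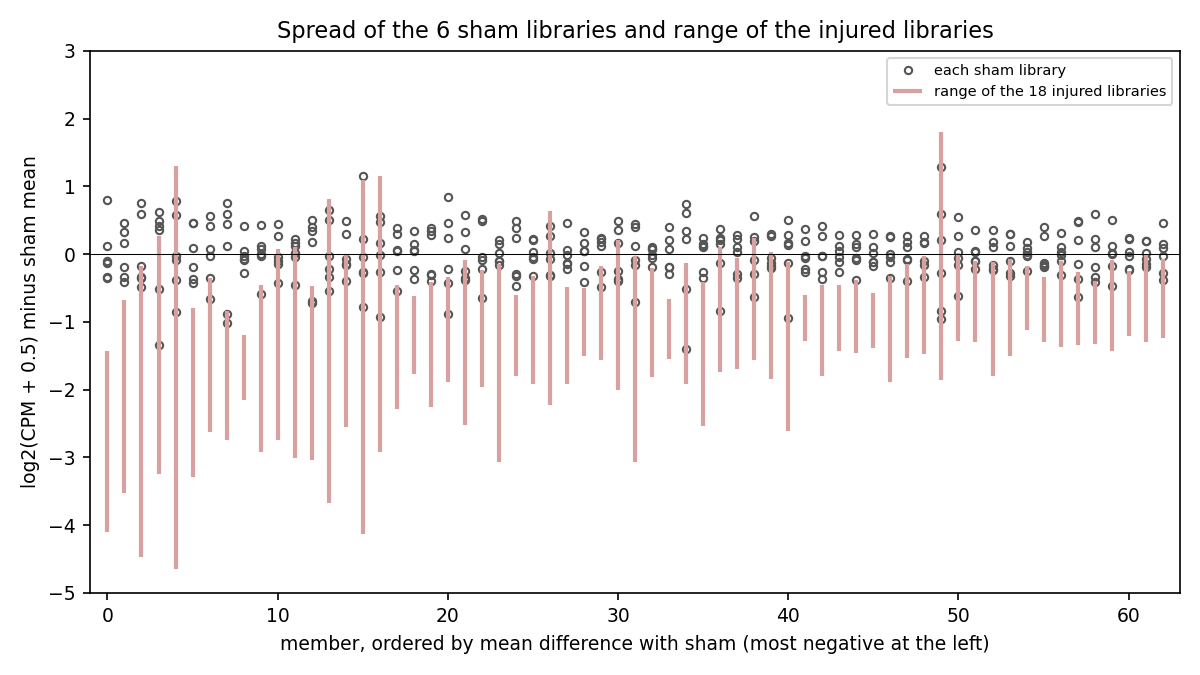
For each of the 63 members (horizontal axis, ordered by the mean of its 3 differences with sham), circles give log2(CPM + 0.5) in each of the 6 sham libraries minus their mean, and the bar spans the 18 injured libraries. In 18 members the bar lies wholly below the circles.

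At 1 day 47 members had all 6 injured libraries below all 6 sham libraries, as did 8.2% of the 11567 genes. At 3 days, in the run of library numbers of sham, 33 members were without overlap (4.69% of all genes), and at 12 weeks 32 were (4.38%). Over all 18 injured libraries 18 members were without overlap, beside 0.458% of all genes. In 49 members every injured library was below the sham mean. The rule used these same comparisons, so the counts and shares describe the members and add no separate evidence. No share of all genes is given beside the last count.

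The sham libraries did not contribute evenly. Sham replicates 2, 1 and 6 were the highest sham library in 19, 18 and 14 members, and replicates 5, 3 and 4 the lowest in 22, 19 and 11. Replicate 6 was the lowest in 0 members, although it was the lowest sham library in 20.9% of all 11567 genes, and replicate 3 was the highest in 2 members but in 19.4% of all genes. The median deviation of the members from their sham mean was 0.18, 0.19, -0.18, -0.09, -0.19 and 0.12 in replicates 1 to 6, against 0.03, 0.04, 0.02, -0.04, -0.03 and -0.03 over all genes. The sham totals, 70340174, 55384996, 57666230, 33595423, 37502147 and 27097306 counts, do not follow that order.

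Applied without sham replicate 1 the rule gave 51 genes, 48 of them members, and without replicate 3 it gave 70, with 59 members among them. Without replicates 2, 4, 5 and 6 it gave 54, 63, 65 and 57 genes, which held 50, 58, 56 and 53 of the members. A total of 37 members met the rule whichever sham library was left out, and 30 met it whichever of the 24 libraries was left out. The median differences at 12 weeks then lay between -0.84 (without replicate 1) and -0.98 (without replicate 3). Across these 6 versions the highest single difference of a member was -0.43, so no member changed sign.

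In the fit over all 15065 genes tested, edgeR's quasi-likelihood test called 58 of the 63 members lower than sham at 1 day (Benjamini-Hochberg adjusted p under 0.05), where 12.1% of all genes were called lower. At 3 days 55 members were called lower (8.59% of all genes) and at 12 weeks 50 (10.9%). All 63 members passed the filter on low counts. A total of 46 were called at all 3 times, 11 at 2 times, 3 at 1 time and 3 at none. The rule used these comparisons, so the counts describe the members and are no independent evidence. The 3 members called at no time had sham ranges of 1.93, 1.49 and 2.25 log2 units. Their SDs within the 12 week group were 1.94, 1.35 and 1.34 log2 units. The member with the second widest sham range, 2.14 log2 units, was called at all 3 times. Those 46 were 17.7% of the 260 genes called lower than sham at every time; the rest of the 260 had a difference above -0.6 at some time or a mean under 2 CPM.

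The differences between injured groups were not part of the rule, which sets no order among the times. The same injured group means were held at or under the threshold, which limits how far any time could return toward sham. Between 12 weeks and 1 day, within one run of library numbers, edgeR's test called 14 members higher and 4 lower at 12 weeks, or 22.2% and 6.35% of the members. Over all genes tested 17.8% were higher and 16.1% lower. The members' median log2 fold change was 0.205, against 0.004 over all genes. Between 12 weeks and 3 days, which lie in different runs, 10 members were higher and 4 lower at 12 weeks (15.9% and 6.35%), beside 16% and 15.3% of all genes, with a median of 0.086 against 0.001. Between 3 days and 1 day 2 members were higher at 3 days, where 1.23% of all genes were, and 0 were lower, where 1.51% were. At an unadjusted p under 0.05 the last 2 counts were 8 and 1. Every member has a mean of at least 2 CPM. Of the 11567 such genes, the test of 12 weeks against 1 day called 20% up and 17.5% down. For 12 weeks against 3 days these shares were 18.7% and 16.9%, and for 3 days against 1 day 1.45% and 1.8%. Beside them, the members' share of higher calls was smaller for 12 weeks against 3 days and larger otherwise. Their shares of lower calls were smaller but rest on 4, 4 and 0 members, so no pattern is read from them. The shares were not compared by a test.

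In 41 members no difference between injured groups was called, and equal levels are not shown by this. Their median differences with sham were -0.94, -0.94 and -0.91 in order of time. A set of 16 members rose at 12 weeks relative to 1 or 3 days, 8 of them relative to both. Their median differences with sham were -1.64, -1.57 and -0.71, and the choice of members kept all of them at or under -0.6 at 12 weeks. Another 5 members were lower at 12 weeks than at 1 or 3 days, 3 of them than at both, with median differences of -0.64, -0.98 and -1.63. The members were sorted by these calls, so the order of the medians follows in part from the sorting. Single calls behind the set of 16 were lost in 0 to 10 of 29 alternatives, and those behind the set of 5 in 0 to 6. No share of all genes is given beside the sizes of these sets.

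**Figure D4:**
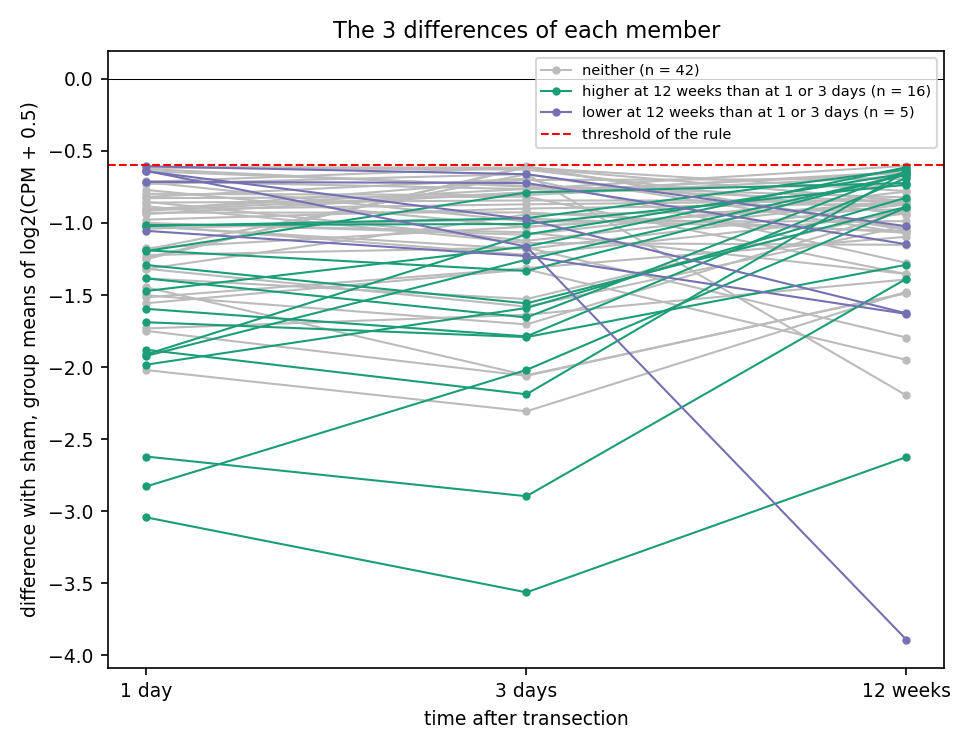
Each line joins the 3 differences with sham of 1 member, in log2(CPM + 0.5); green lines are the 16 members that rose at 12 weeks relative to 1 or 3 days by edgeR's test, purple lines the 5 that were lower, grey lines the rest, and the dashed line is the threshold of -0.6. All points lie at or under the dashed line because the rule placed them there.

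ENSRNOG00000023509 was among the members that rose by 12 weeks. At 12 weeks it was higher by 0.87 ± 0.281 (SE) on the log2 scale than at 1 day (edgeR adjusted p = 0.0195) and by 1.09 ± 0.283 (SE) than at 3 days (adjusted p = 0.00493). The first call was lost without 12 week replicate 3 (0.64, edgeR adjusted p = 0.0728) and without 1 day replicate 6 (0.76, adjusted p = 0.0503). ENSRNOG00000020338 was higher at 12 weeks than at 3 days by 1.87 ± 0.598 (SE) (edgeR adjusted p = 0.0194), which was lost without 12 week replicate 5 (1.46, adjusted p = 0.0717). Against 1 day its 12 week value was not called (0.70, edgeR adjusted p = 0.312).

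The largest rise between 1 day and 12 weeks belonged to the fourth member by mean difference with sham. It had 13.8 to 55.4 CPM in sham (median 46.9), 3.33 to 6.76 at 1 day, 6.32 to 14.4 at 3 days and 5.53 to 43.1 at 12 weeks (median 23.7). Its log2 fold change at 12 weeks was 2.32 ± 0.373 relative to 1 day (SE, edgeR adjusted p = 5.54e-05) and 1.42 ± 0.364 relative to 3 days (adjusted p = 0.00432). The 12 week libraries of this member reached from the level of 1 day into the sham range. The second member by mean difference rose by 1.33 ± 0.255 relative to 1 day (edgeR adjusted p = 0.000342), from 1.99 to 5.50 CPM at 1 day to 4.21 to 14.0 CPM at 12 weeks. It stayed below its sham range of 17.0 to 31.4 CPM in every 12 week library. The eleventh member by mean difference had 53.9 to 99.4 CPM in sham, 12.0 to 28.9 at 1 day, 10.4 to 21.2 at 3 days and 28.5 to 77.0 at 12 weeks. It rose at 12 weeks relative to both acute times, by 1.31 ± 0.222 and 1.60 ± 0.226 (edgeR adjusted p = 9.05e-05 and 1.34e-05).

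In the other direction, the fifth member by mean difference fell by 3.43 on the log2 scale between 1 day and 12 weeks (SE 0.671, edgeR adjusted p = 0.00039). It had 18.1 to 57.4 CPM in sham, 5.37 to 43.7 at 1 day, 3.06 to 82.2 at 3 days and 0.850 to 7.02 at 12 weeks. Its acute libraries overlapped the sham range and its 12 week libraries did not. By edgeR's test this member was not called lower than sham at 1 day (adjusted p = 0.531) or 3 days (adjusted p = 0.514). It was called at 12 weeks (edgeR adjusted p = 0.000209). The sixth member by mean CPM, given above, was also lower at 12 weeks, by -0.59 ± 0.161 relative to 1 day (edgeR adjusted p = 0.00623) and -0.48 ± 0.161 relative to 3 days (adjusted p = 0.0243). The latter call was lost with only the 2 groups in the fit and without 3 day replicate 1, 3 or 4 (edgeR adjusted p up to 0.0846). The 2 members called between 3 days and 1 day were the third and the tenth by mean CPM. The third had 109 ± 25.9 CPM at 1 day and 169.7 ± 42.3 CPM at 3 days, or 0.66 ± 0.183 higher on the log2 scale (SE, edgeR adjusted p = 0.0483). This call was lost in 20 of 29 alternatives, where adjusted p reached 0.124 (range over all of them 0.0125 to 0.124). Those were the replicate block, no filter on low counts, only the 2 groups in the fit, and leaving out 17 of the 24 libraries, all but sham replicate 1, 1 day replicate 2, 3 day replicates 2 and 5, and 12 week replicates 1, 2 and 3. The tenth had 28.6 ± 2.41 and 38.5 ± 6.88 CPM, or 0.44 ± 0.097 higher (SE, edgeR adjusted p = 0.0174), and was called in all 29 alternatives (adjusted p 0.00254 to 0.045). The runs of library numbers differ between these 2 groups.

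Deviations of single libraries from their own group mean did not enter the rule and show whether members moved together from library to library. Over the 24 libraries, after the group means were removed, the Pearson correlation between 2 members had a median of 0.13 over 1953 pairs, and 0.16 over the pairs of all 11567 genes. A correlation of at least 0.7 was seen in 34 pairs of members (1.74%) and in 1.4% of all pairs. With Spearman in place of Pearson the shares were 1.18% and 0.511%, so the distance between the members and all genes depends on the measure. These correlations are a description across libraries that share depth and scaling, with no test.

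**Figure D5:**
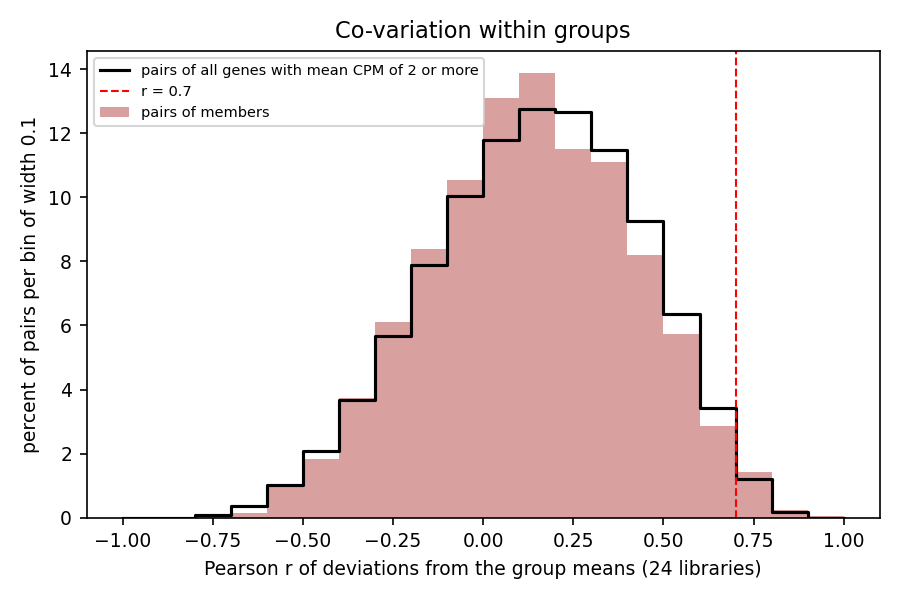
Distribution of the Pearson correlation between genes of their deviations from the group means over the 24 libraries, in percent of pairs per bin of width 0.1, for the 1953 pairs of members (bars) and all pairs of the 11567 genes (line). Both are centred slightly above 0, with 1.74% and 1.4% of pairs at 0.7 or more.

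Pairs at or above 0.7 linked 34 members into 9 small sets of 2 to 8 genes. A gene entered a set by a single such pair, so the genes of a set need not all correlate. The lowest correlation within the set of 8 was 0.124, within the set of 7 it was 0.457 and within the set of 5 it was 0.48. The set of 7 contained ENSRNOG00000020338 and was far below its group mean in 12 week replicate 3 (mean deviation -1.60) and in 3 day replicate 5 (-1.11). The set of 5 contained ENSRNOG00000023509, with median differences with sham of -1.52, -1.58 and -1.02, and stood above its group mean by 0.86 in 12 week replicate 3. That library was therefore low for one set and high for the other. The most strongly correlated pair (r = 0.906) joined the fifth member by mean difference with one of the other members lower at 12 weeks. In 3 day replicate 5 this pair stood 2.04 log2 units above its group mean and in 3 day replicate 2 it stood at -1.67.

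Some injured libraries stood apart over the members. Replicate 5 was the lowest of the 3 day libraries in 24 members and in 29.2% of all 11567 genes. It also had the lowest total of them, 16756399 counts. Replicate 3 was the highest in 28 members and in 21.9% of all genes. Their median deviations over the members were -0.24 and 0.31. Replicate 1 was the lowest 3 day library in 17 members, beside 43.8% of all genes. At 12 weeks replicate 3 was the lowest in 20 members and the highest in 19. Over all genes it was the lowest library of its group in 55.8% and the highest in 12.3%. Its TMM factor, which corrects the scaling for libraries dominated by a few genes, was 0.879, the lowest of the 24, and 3 day replicate 1 had 0.891. The others lay between 0.955 and 1.095. With TMM-adjusted library sizes the rule gave 68 genes, all 63 members among them. Without 12 week replicate 3 it gave 67, with 58 members, and without 3 day replicate 5 it gave 60, with 56.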

How the data were processed

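RNA was measured as total RNA depleted of ribosomal RNA, in stranded paired-end libraries, per the labels' protocols. The authors deposited raw counts per gene in 1 table. The submitters' processing notes name FastQC 0.12.1, STAR 2.7.11a and featureCounts 2.0.6 with the build mRatBN7.2; the strand setting, the annotation release and how multi-mapping reads were treated were not found there, so overlapping genes and near-identical copies may share reads. The table has 26166 lines for 23098 IDs; 781 IDs are repeated with identical counts and were used once. Even numbers made up 58.1 to 61.1% of counts from 1 to 200 per library, so a count may not be 1 independent fragment.

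Members were chosen with earlier results of these data known, as were the lists and tests. CPM used library totals, the pseudocount was 0.5 and the threshold -0.6. Tests used edgeR 4.0.16 in R 4.3.3: filterByExpr left 15065 genes, with TMM scaling, 1 model of 4 groups over 24 libraries (20 residual degrees of freedom), two-sided quasi-likelihood F tests and Benjamini-Hochberg adjustment over all tested genes. Each standard error is the fold change divided by the square root of F. DESeq2 1.42.0, other scalings and filters, the replicate block and leaving out each library were alternatives. The scripts were tested on simulated counts. Pairs of libraries within a group differed over the members far beyond sampling noise (chi-square per degree of freedom 29.4 to 273), so none was treated as a repeat deposit of another; this does not show that they came from separate rats.

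The rule for named genes needed symbols. No ID had one, so the cell type markers, pathway lists and promoters were not used, and 2 IDs are printed; ranks stand for the other members. Members singled out by rank follow the size and test parts of that rule (the 10 most negative mean differences, the 10 highest mean CPM, the 5 largest called changes in each direction between injured groups, the members and genes nearest to the threshold, and the widest and narrowest sham ranges), except the linked sets and the members called at no time, which were chosen after their values were seen.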

Additional observations from a re-analysis of the deposited data

Results flagged for a closer look

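Sham replicate 5 lay far from the other sham libraries for ENSRNOG00000020338, with 16.5 CPM where the nearest library had 10.1 CPM. The gap was 0.679 of the whole range of the group, above the 95% critical value of Dixon's test for 6 libraries, which chance exceeds in about 1 in 20 groups. Over all members the same was found in 3 of 63 in sham, 4 at 1 day, 8 at 3 days and 7 at 12 weeks, or 4.76%, 6.35%, 12.7% and 11.1%, beside 5.13%, 5.71%, 6.66% and 7.56% of all 11567 genes. At 12 weeks replicate 3 was the distant library in 5 of the 7.

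The difference with sham was not the same at all times for some members, by edgeR's test between injured groups. The comparison of 12 weeks with 1 day called 18 members, that of 12 weeks with 3 days called 14, and that of 3 days with 1 day called 2. For ENSRNOG00000023509 the log2 fold changes at 12 weeks were 0.87 relative to 1 day and 1.09 relative to 3 days, and for ENSRNOG00000020338 the log2 fold change at 12 weeks relative to 3 days was 1.87. Each time has the same sham group and none of its own, so the part of age and time in these differences cannot be told apart from that of the injury.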

How the results depend on the processing

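The number of genes that met the rule was 95 with a threshold of -0.5 and 13 with -1, and 51 to 70 when each library was left out. It was 66 with DESeq2 size factors, 55 and 73 with pseudocounts of 1 and 0.1, 74 and 47 with a minimum mean of 1 and 5 CPM, and 65 with group medians, which kept 49 members. Counts thinned to the shallowest library gave 63 genes with 58 members, and leaving out the 2 shallowest libraries gave 56 with 50; both were chosen after seeing the data. Of the members, 56 to 59 were called lower than sham at 1 day, 51 to 56 at 3 days and 47 to 57 at 12 weeks without any 1 library. Calls between 12 weeks and 1 day numbered 15 to 19 and between 12 weeks and 3 days 12 to 18. The lower calls of the latter pair numbered 2 to 6, and 2 with only the groups compared. Between 3 days and 1 day the calls, all higher, numbered 1 to 3 without any 1 library, 1 with no filter on low counts and 1 with the replicate block. The median sham SD lay between 0.294 and 0.335, and the share of member pairs at 0.7 or more between 1.59 and 2.15%, when each library was left out. That share was 1.79% with TMM-adjusted library sizes and 1.18% with Spearman in place of Pearson; these alternatives for the pairs were chosen after seeing the data. The log2 fold change of ENSRNOG00000023509 between 3 days and 1 day, -0.22 and not called, was 0.046 without 1 day replicate 2 and -0.36 without 3 day replicate 1, the ends of its range. Libraries with the same replicate number did not deviate together (correlations of -0.234 to 0.177, and 1 of 24 libraries correlated best with its own number). No shared effect of the number was thus seen, which cannot exclude that the samples were paired. Members with low CPM rest on few counts, and a difference near -0.6 moved across the threshold with single libraries.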
